A study of Mus musculus with 8 samples.

Results

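The genes examined were 9 enzymes and transporters of triglyceride synthesis and glyceroneogenesis, namely Pck1, Pcx, Gpd1, Aqp7, Gpam, Agpat2, Lpin1, Dgat1 and Dgat2. They were taken by gene symbol for their place in the pathway, with earlier results of these data known, and all 9 were found among the 17740 genes listed for HFD mice and the 16436 listed for ND mice, of which 16136 were common to both. Adipose tissue-derived macrophages that adhere to adipocytes (ARMs) were compared with macrophages of the stromal vascular fraction (SMs, labelled NARM) in 8 RNA-seq libraries, 2 for each of the 4 combinations of cell type and diet. The cells came from epididymal white adipose tissue (eWAT) of wild-type male C57BL/6J mice that had been put on either diet at 6 weeks of age. HFD mice had received a high-fat diet for 8 weeks, and ND mice a chow diet. Each HFD library was a pool of 6 mice and each ND library a pool of 10, so the spread between libraries is a spread between pools, and p-values measure only that spread. After collagenase digestion, SMs were taken from the stromal pellet, whereas ARMs were released from the floating adipocytes by vortexing with beads, and both were then sorted for the macrophage surface proteins CD45, CD11b and F4/80.

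Triglyceride is built on glycerol 3-phosphate. Cells that do not take glycerol up and phosphorylate it make this backbone from glucose or, by glyceroneogenesis, from pyruvate by way of oxaloacetate and phosphoenolpyruvate, a route best known from adipose tissue and liver. Acyl groups are then added in sequence, phosphatidate is dephosphorylated to diacylglycerol, and a last acyl group closes the triglyceride that is stored in lipid droplets.

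Counts summed to between 18288775 and 19040133 per HFD library and between 14508824 and 16319038 per ND library. ARMs and SMs were compared within each diet by the quasi-likelihood test of edgeR, and a call asked for more than 1.5-fold with a Benjamini-Hochberg adjusted p, taken over every gene tested, of less than 0.05. The smallest two-sided p that exact permutation allows for 2 libraries against 2 is 0.333, so each adjusted p relies on the spread that edgeR estimates over many genes together. Levels are given as FPKM, in which reads are scaled by gene length and library depth. Macrophage markers were high in all 8 libraries and none of the 9 tested was called in either diet, with summed levels of 14783 to 15731 CPM (counts scaled by library depth alone) in HFD ARMs and 15878 to 16097 CPM in HFD SMs. In ND mice the same sum was 18074 to 18667 CPM in ARMs and 18476 to 18487 CPM in SMs.

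Pck1, Pcx and Gpd1, which lead to glycerol 3-phosphate, and Dgat2, which closes the triglyceride, were called higher in ARMs on both diets. Aqp7 was called in HFD mice, and Gpam, Agpat2, Lpin1 and Dgat1 were called in neither. In HFD mice 5 of the 9 genes were called higher in ARMs (Dgat2, Gpd1, Pck1, Pcx and Aqp7) and none lower, against 4.46% of the 13337 genes tested called higher. In ND mice 4 of the 9 were called higher (Dgat2, Gpd1, Pck1 and Pcx) and none lower, against 3.55% of 12441 genes. Both ARM libraries exceeded both SM libraries for 6 of the 9 genes in HFD mice, against 26.3% of all genes tested, and for 5 of the 9 in ND mice, against 21.2%. The median log2 fold change of the 9 genes was 0.73 in HFD mice and 0.40 in ND mice, while that of all genes tested was -0.01 and -0.02. Because the 9 genes were chosen with results known, these counts describe them and are no independent evidence. Dgat2 and Pcx had also been picked by the study from these same libraries to illustrate lipid synthesis, so their direction is not independent evidence either. The same holds for the regulator Pparg, picked for lipogenesis in HFD mice. The paper also names Dgat2 among adipocyte genes raised in ARM RNA without a matching gain of open chromatin, and proposes that such RNA comes from adipocytes. Its further evidence includes Adipoq RNA seen in ARMs cultured with adipocytes, and uptake of labelled adipocyte RNA that cytochalasin D blocked. Lower Dgat2 in ARMs that lack the gene Cav-1 is reported there as well. An adipocyte origin of the RNA was not tested here. In pools of sorted cells, fewer cells of a kind and less RNA per cell cannot be told apart.

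**Figure D1:**
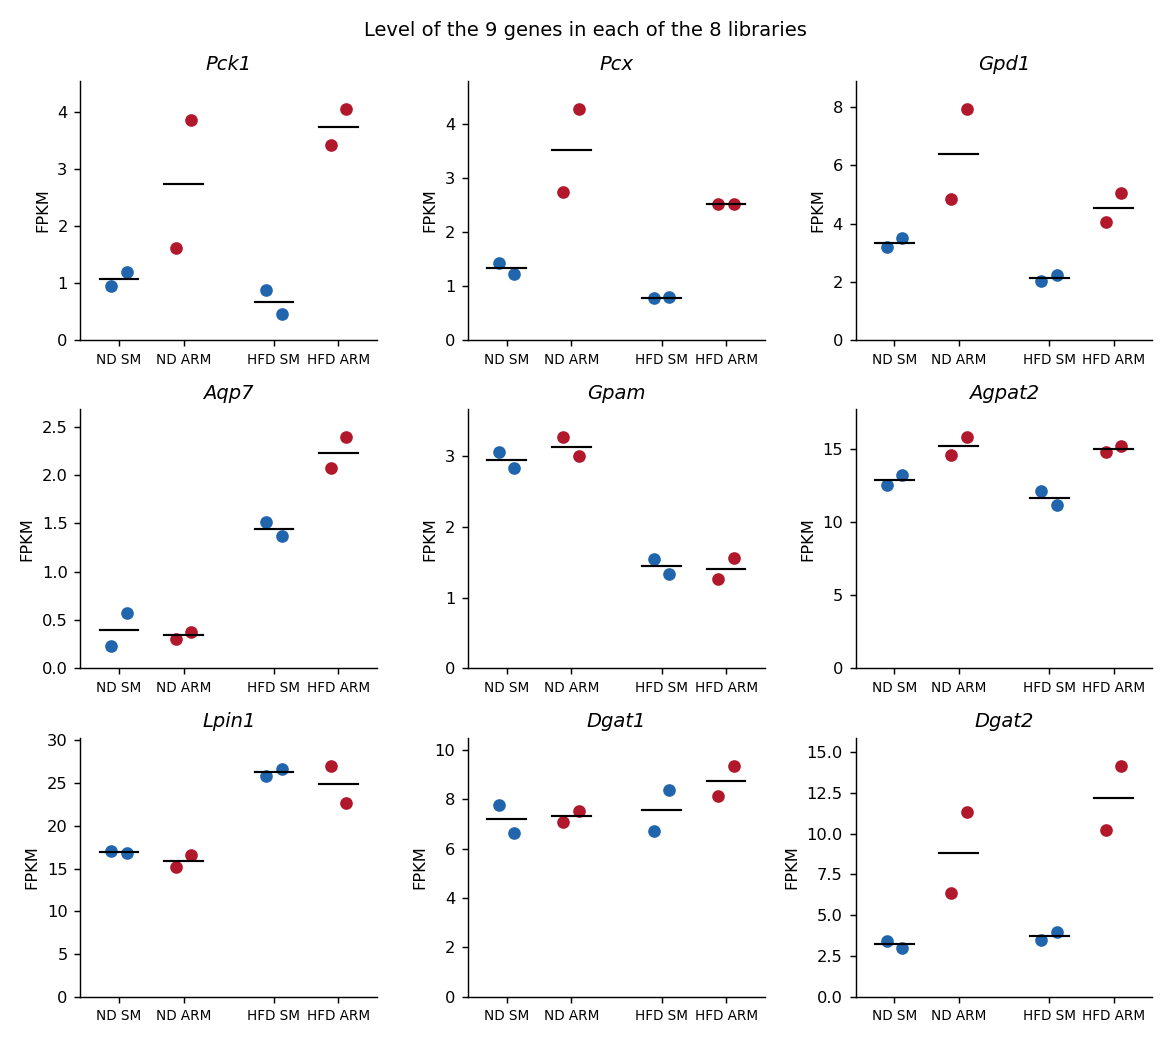
FPKM (vertical axes, from 0) of each of the 9 genes in the 8 libraries. Points are libraries (blue SMs, red ARMs) and bars are means of 2. Pck1, Pcx, Gpd1 and Dgat2 stand higher in ARMs than in SMs on both diets, and Gpam, Lpin1 and Aqp7 differ more between the diets than between ARMs and SMs.

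Pck1 encodes cytosolic phosphoenolpyruvate carboxykinase, the enzyme regarded as setting the pace of glyceroneogenesis (Entrez 18534, chromosome 2, 173153073 to 173159274 of GRCm38, plus strand). In HFD mice its level was 3.42 and 4.06 FPKM in the ARM libraries and 0.88 and 0.46 FPKM in the SM libraries. In ND mice it was 1.62 and 3.86 FPKM in ARMs and 0.95 and 1.2 FPKM in SMs. The ARM libraries lay above the SM libraries in both diets, by a wide margin in HFD mice and with ND ARM replicate 1 close to the ND SMs. The log2 fold change was 2.44 ± 0.24 (SE) in HFD mice, with an edgeR adjusted p of 0.000235, and this was the largest of the 9 genes. In ND mice it was 1.33 ± 0.35 with an edgeR adjusted p of 0.0391. The ND call was lost without ND ARM replicate 2 (log2 fold change 0.57), without ND SM replicate 1 (1.17), under DESeq2 (adjusted p 0.0721) and by limma on log2(FPKM + 1) or log2(FPKM + 0.1) (adjusted p 0.194 and 0.171). The counts behind these levels were low, 165.41 and 194.86 estimated reads in HFD ARMs against 44.11 and 23.01 in HFD SMs, and 65 and 138 in ND ARMs against 35 and 47 in ND SMs. The HFD counts of Pck1 and the counts of Aqp7 in the HFD libraries and in ND ARM replicate 1 were fractional, and how the counting program shared reads out is not given in the sources used here.

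Pcx encodes pyruvate carboxylase, the mitochondrial enzyme that turns pyruvate into oxaloacetate and so feeds Pck1 (Entrez 18563, chromosome 19, 4510472 to 4621752, plus strand). Its level was 2.52 FPKM in both HFD ARM libraries and 0.77 and 0.79 FPKM in the HFD SM libraries. Among ND libraries it was 2.75 and 4.29 FPKM in ARMs and 1.43 and 1.22 FPKM in SMs. Replicates of HFD mice were nearly equal, and in neither diet did ARMs and SMs overlap. The log2 fold change was 1.67 ± 0.15 (SE) in HFD mice (edgeR adjusted p 0.000130) and 1.41 ± 0.22 in ND mice (edgeR adjusted p 0.00121). With any library left out it stayed between 1.66 and 1.68 in HFD mice and between 1.05 and 1.70 in ND mice, and was called each time.

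Gpd1 encodes cytosolic glycerol 3-phosphate dehydrogenase, which reduces dihydroxyacetone phosphate to glycerol 3-phosphate (Entrez 14555, chromosome 15, 99717587 to 99725014, plus strand). Its level was 4.04 and 5.04 FPKM in HFD ARMs and 2.01 and 2.22 FPKM in HFD SMs. The ND libraries had 4.86 and 7.95 FPKM in ARMs and 3.19 and 3.49 FPKM in SMs. Groups did not overlap in either diet, and ND ARM replicate 2 was the highest of the 8 libraries. The log2 fold change was 1.07 ± 0.15 (SE) in HFD mice (edgeR adjusted p 0.00140) and 0.94 ± 0.21 in ND mice (edgeR adjusted p 0.0151). The HFD call was lost without the filter on low counts (edgeR adjusted p 0.0534). The ND call was lost without ND ARM replicate 2 (log2 fold change 0.53), without ND SM replicate 1 (0.87) and by limma on log2(FPKM + 1) or log2(FPKM + 0.1) (adjusted p 0.0834 and 0.0749). An antisense gene, Gm16537, shares 384 bases with Gpd1 exons in the GENCODE annotation, and whether counting used strand is not given in the sources used here.

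Aqp7 encodes the aquaglyceroporin through which adipocytes pass glycerol (Entrez 11832, chromosome 4, 41033074 to 41048237, minus strand). In HFD mice its level was 2.07 and 2.39 FPKM in ARMs and 1.51 and 1.37 FPKM in SMs. In ND mice it was 0.30 and 0.38 FPKM in ARMs and 0.23 and 0.57 FPKM in SMs, from 4 to 15 reads per library. ARMs lay above SMs in HFD mice, and the ND groups overlapped. The HFD log2 fold change was 0.73 ± 0.18 (SE) with an edgeR adjusted p of 0.0305. The call was lost under DESeq2 (adjusted p 0.276), without the filter on low counts (edgeR, 0.0911) and in 1 fit of all libraries (edgeR, 0.150). It was also lost by limma on log2(FPKM + 1) or log2(FPKM + 0.1) (adjusted p 0.0691 and 0.0766). The same was so whichever of the 4 HFD libraries was left out (log2 fold change 0.67 to 0.79). The ND log2 fold change was 0.40 ± 0.56 with an edgeR adjusted p of 0.832, and its 95% confidence interval ran from -0.80 to 1.60.

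Sequences before the start sites of Pck1 and Pcx, called higher in ARMs on both diets, and of Agpat2, which was not called in either, are printed from RefSeq (build GRCm38.p6) so that the 3 can be read side by side. RefSeq windows were held for 6 of the 9 genes at 9 start sites, and the 250 bases before each were searched on both strands for the TATA box (TATAAA), the CCAAT box, the GC box (GGGCGG), the E-box (CACGTG) and the cAMP response element (TGACGTCA) with its variant form (TTACGTCA). Both forms of the last end in the same letters, and no match of one motif overlapped that of another. Matches are in capitals, and each sequence runs 5′ to 3′ on the strand of its gene.
Pck1 (chr2:173152823-173153072, plus strand): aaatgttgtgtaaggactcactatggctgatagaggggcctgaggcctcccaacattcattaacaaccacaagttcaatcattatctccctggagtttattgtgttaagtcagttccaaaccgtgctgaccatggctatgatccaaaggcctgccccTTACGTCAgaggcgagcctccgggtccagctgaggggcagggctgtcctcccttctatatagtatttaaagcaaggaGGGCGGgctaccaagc
Pcx (chr19:4510222-4510471, plus strand): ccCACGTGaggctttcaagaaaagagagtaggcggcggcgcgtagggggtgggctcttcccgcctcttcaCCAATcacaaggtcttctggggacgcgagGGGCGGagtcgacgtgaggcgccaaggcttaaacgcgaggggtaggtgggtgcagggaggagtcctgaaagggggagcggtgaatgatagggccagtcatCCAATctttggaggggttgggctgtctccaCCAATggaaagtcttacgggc
Agpat2 (chr2:26604418-26604667, minus strand): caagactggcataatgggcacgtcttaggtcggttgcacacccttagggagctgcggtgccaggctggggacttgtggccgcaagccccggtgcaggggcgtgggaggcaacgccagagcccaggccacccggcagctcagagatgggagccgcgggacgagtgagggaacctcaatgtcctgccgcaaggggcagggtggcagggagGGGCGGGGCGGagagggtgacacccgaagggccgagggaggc
Pck1 held TTACGTCA from 93 to 86 bases before its start site, a match found in 0.447% of the 32851 RefSeq windows, and GGGCGG from 16 to 11 bases before it, which 32.7% of windows hold. The first Pcx window held CCAAT at 3 places (33.8% of windows hold it), GGGCGG once and CACGTG once (6.02% of windows). Agpat2 held GGGCGG at 2 places that overlap by a base. Of the Gpam windows, one held GGGCGG and the other CCAAT, both on the opposite strand. No match was found in the Lpin1 window, in the second Pcx window or in either Aqp7 window. A match describes these letters only, and no binding was measured in the data used here.

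Gpam, Agpat2 and Lpin1, which act between glycerol 3-phosphate and diacylglycerol, were called in neither diet. Gpam encodes the mitochondrial glycerol 3-phosphate acyltransferase that adds the first acyl group (Entrez 14732, chromosome 19, 55067635 to 55127319, minus strand). Its level was 1.26 and 1.56 FPKM in HFD ARMs and 1.55 and 1.34 FPKM in HFD SMs, and 3.27 and 3.0 FPKM in ND ARMs and 3.06 and 2.84 FPKM in ND SMs. ARMs and SMs overlapped in both diets, and the log2 fold changes were -0.13 ± 0.15 (SE) in HFD mice and 0.10 ± 0.14 in ND mice (edgeR adjusted p 0.674 and 0.829). The 95% confidence intervals, -0.45 to 0.20 and -0.19 to 0.39, leave out a change of the size of that of Dgat2.

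Agpat2 encodes the acyltransferase that makes phosphatidate from lysophosphatidate (Entrez 67512, chromosome 2, 26593057 to 26604417, minus strand). Its level was 14.74 and 15.17 FPKM in HFD ARMs and 12.13 and 11.15 FPKM in HFD SMs, and 14.59 and 15.78 FPKM in ND ARMs and 12.51 and 13.23 FPKM in ND SMs. ARMs lay above SMs in both diets without overlap, by less than the fold change asked of a call. The log2 fold change was 0.33 ± 0.09 (SE) in HFD mice (edgeR adjusted p 0.0509) and 0.22 ± 0.13 in ND mice (edgeR adjusted p 0.500). Its exons share 64 bases with Egfl7 on the opposite strand.

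Lpin1 encodes lipin 1, a phosphatidate phosphatase that yields diacylglycerol (Entrez 14245, chromosome 12, 16535669 to 16653903, minus strand). It had the highest mean level of the 9 genes in every group. Its level was 27.02 and 22.68 FPKM in HFD ARMs and 25.82 and 26.69 FPKM in HFD SMs, and 15.23 and 16.54 FPKM in ND ARMs and 17.04 and 16.84 FPKM in ND SMs. The HFD groups overlapped, and the ND ARMs lay just below the ND SMs. The log2 fold changes were -0.07 ± 0.08 (SE) in HFD mice and -0.09 ± 0.10 in ND mice (edgeR adjusted p 0.70 and 0.778).

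The last acyl group is added by either of 2 enzymes that are unrelated in sequence. Dgat1 (Entrez 13350, chromosome 15, 76502012 to 76512021, minus strand) was at 8.15 and 9.37 FPKM in HFD ARMs and 6.74 and 8.37 FPKM in HFD SMs. On ND it was at 7.08 and 7.55 FPKM in ARMs and 7.77 and 6.63 FPKM in SMs. The groups overlapped in both diets, and the log2 fold changes were 0.20 ± 0.13 (SE) in HFD mice and 0.07 ± 0.16 in ND mice (edgeR adjusted p 0.395 and 0.902).

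Dgat2 (Entrez 67800, chromosome 7, 99153663 to 99182713, minus strand), the enzyme more closely tied to newly made fatty acids, was at 10.24 and 14.17 FPKM in HFD ARMs and 3.50 and 3.95 FPKM in HFD SMs. On ND it was at 6.34 and 11.33 FPKM in ARMs and 3.42 and 3.0 FPKM in SMs. ARMs and SMs were well apart in both diets, with ND ARM replicate 1 the lowest of the 4 ARM libraries. The log2 fold change was 1.68 ± 0.15 (SE) in HFD mice (edgeR adjusted p 0.000126) and 1.46 ± 0.23 in ND mice (edgeR adjusted p 0.00145), and Dgat2 was called with any library left out (1.45 to 1.89 in HFD mice and 0.97 to 1.82 in ND mice).

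**Figure D2:**
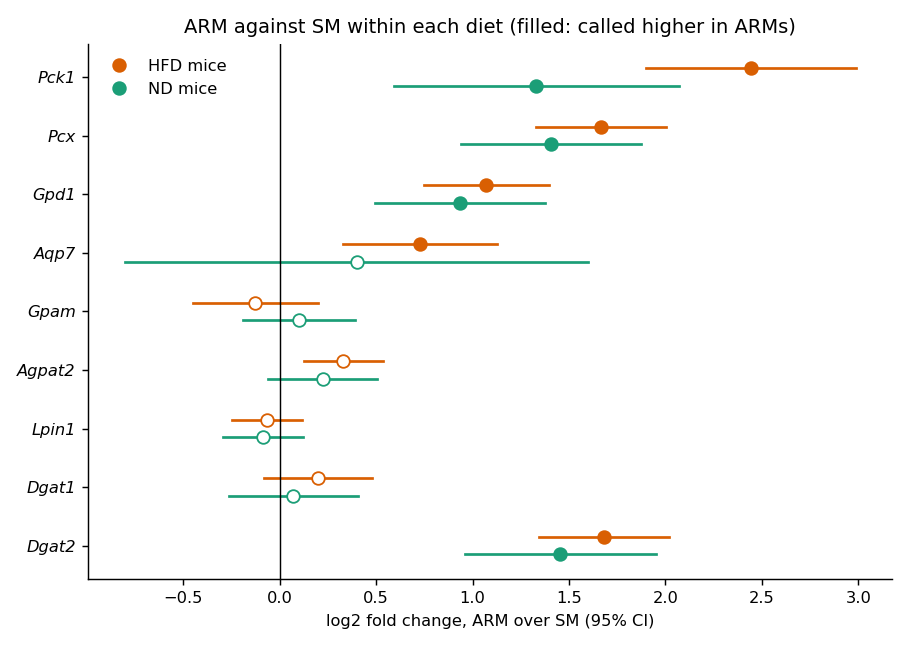
Log2 fold change of ARMs over SMs (horizontal axis) with its 95% confidence interval for the 9 genes in HFD (orange) and ND mice (green), from edgeR with 2 libraries per group. Filled points passed the call, 5 genes in HFD mice and 4 in ND mice, with Pck1 of HFD mice the farthest from 0 at 2.44.

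Because both Dgat enzymes act on the same substrate, their ratio within a library was read as well. Dgat2 over Dgat1, in FPKM, was 1.26 and 1.51 in HFD ARMs and 0.519 and 0.472 in HFD SMs. In ND mice the ratio was 0.895 and 1.5 in ARMs and 0.440 and 0.452 in SMs. Dgat1 was thus the more abundant of the pair in all 4 SM libraries and in ND ARM replicate 1, and Dgat2 in the other 3 ARM libraries. The same reading was made for Pck1 over its mitochondrial counterpart Pck2 and for Gpd1 over the related Gpd1l. Pck1 over Pck2 was 0.695 and 0.806 in HFD ARMs against 0.188 and 0.106 in HFD SMs, and 0.474 and 0.967 in ND ARMs against 0.228 and 0.284 in ND SMs. Gpd1 over Gpd1l was 0.434 and 0.626 in HFD ARMs against 0.239 and 0.250 in HFD SMs, and 0.458 and 0.826 in ND ARMs against 0.305 and 0.327 in ND SMs. Pck2 and Gpd1l therefore had the higher level of their pair in every library, and both ratios were higher in ARMs than in SMs without overlap.

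**Figure D3:**
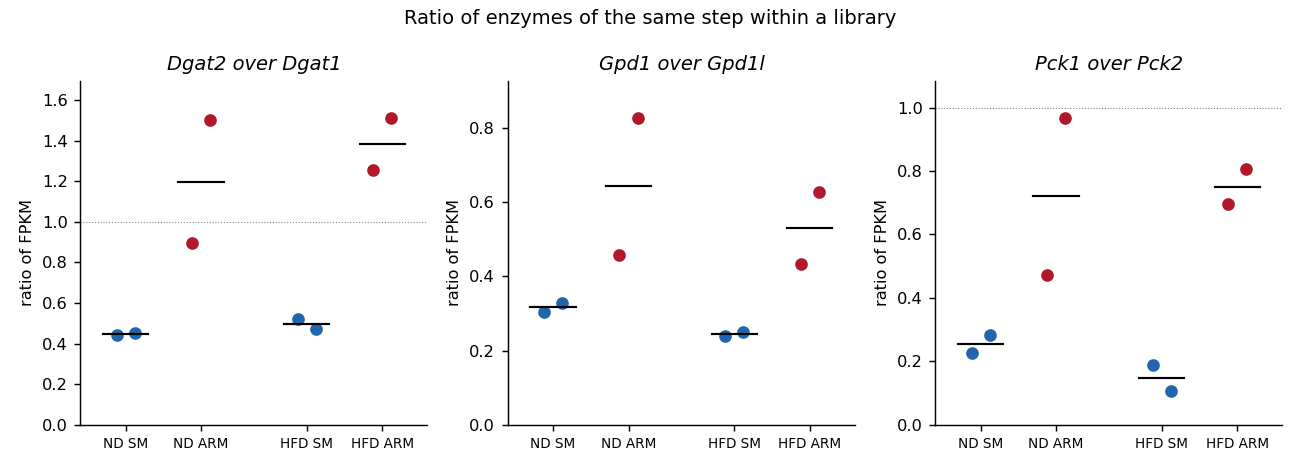
Ratio of FPKM within a library (vertical axes, from 0) for Dgat2 over Dgat1, Gpd1 over Gpd1l and Pck1 over Pck2. Points are libraries, bars are means of 2, and the dotted line marks equal levels where it lies in range. In all 3 panels both ARM libraries of a diet stand above both SM libraries.

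Ordered by mean level, HFD ARMs had Lpin1 (24.9 ± 3.07 FPKM, SD, n = 2), Agpat2 (14.96 ± 0.304), Dgat2 (12.2 ± 2.78), Dgat1 (8.76 ± 0.863), Gpd1 (4.54 ± 0.707), Pck1 (3.74 ± 0.453), Pcx (2.52, with equal libraries), Aqp7 (2.23 ± 0.226) and Gpam (1.41 ± 0.212). Of these neighbours Gpd1 and Pck1 overlapped between libraries. In HFD SMs the order was Lpin1, Agpat2, Dgat1, Dgat2, Gpd1, Gpam, Aqp7, Pcx and Pck1, where Gpam and Aqp7 overlapped, as did Pcx and Pck1. Pck1 was thus last of the 9 genes in HFD SMs at 0.670 ± 0.297 FPKM and sixth in HFD ARMs. The ND ARM order was Lpin1, Agpat2, Dgat2, Dgat1, Gpd1, Pcx, Gpam, Pck1 and Aqp7, and all neighbours overlapped except Agpat2 and Dgat2, Gpd1 and Pcx, and Pck1 and Aqp7. In ND SMs it was Lpin1, Agpat2, Dgat1, Gpd1, Dgat2, Gpam, Pcx, Pck1 and Aqp7, where Gpd1 overlapped Dgat2 and Dgat2 overlapped Gpam.

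Markers of some other cell types were also higher in ARMs. Of the adipocyte markers 11 of 12 were called higher in HFD ARMs (median log2 fold change 2.62), with a summed level of 333 and 354 CPM in ARMs and 93.6 and 97.5 CPM in SMs. In ND mice 7 of the 11 tested were called (median 1.47), with sums of 236 and 382 CPM in ARMs and 132 and 160 CPM in SMs. None of these markers was at 0 in all libraries of a diet. Adiponectin (Adipoq) was at 12.99 and 15.73 FPKM in HFD ARMs and 1.90 and 1.99 FPKM in HFD SMs. The adipocyte sum was 3.59-fold higher in HFD ARMs than in HFD SMs, while the mean CPM of Pck1 was 5.46-fold, of Dgat2 3.21-fold, of Pcx 3.18-fold, of Gpd1 2.10-fold and of Aqp7 1.66-fold higher. In ND mice the adipocyte sum was 2.12-fold higher, Dgat2 2.75-fold, Pcx 2.66-fold, Pck1 2.55-fold and Gpd1 1.92-fold. Lipe, the adipocyte marker not called in HFD mice, gave 45.7 and 48.7 CPM of the HFD SM sums, which holds the fold of the sum down. On the log2 scale the 12 markers ran from 0.30 to 3.03 in HFD mice. The largest of the 9 genes, Pck1 in HFD mice (2.44) and Dgat2 in ND mice (1.46), did not exceed the marker medians of 2.62 and 1.47. The part of adipocyte transcripts in the differences was not tested.

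The 2 ND ARM libraries differed from each other in the same genes. ND ARM replicate 2 was above replicate 1 by 2.41-fold for Pck1, 1.81-fold for Dgat2, 1.65-fold for Gpd1 and 1.57-fold for Pcx in CPM. For Dgat1, Agpat2, Lpin1 and Gpam the ratio was between 0.913 and 1.14. The summed endothelial markers were 1.95-fold higher in replicate 2, the adipocyte markers 1.62-fold, the pericyte and smooth muscle markers 1.54-fold and the lymphocyte markers 1.45-fold. The fibroblast and progenitor markers were 1.43-fold higher, the mesothelial markers 1.42-fold, the neutrophil markers 1.32-fold and the macrophage markers 1.03-fold. Their part in the difference between these libraries was not tested. Between the ND SM libraries, replicate 2 was above replicate 1 for the mesothelial (1.48-fold), fibroblast and progenitor (1.28-fold), lymphocyte (1.24-fold), adipocyte (1.22-fold) and endothelial sums (1.17-fold) and for Pck1 (1.25-fold). It was below for the pericyte and smooth muscle sum (0.878-fold), Dgat2 (0.873-fold) and Pcx (0.846-fold). Without ND ARM replicate 2 the members called in ND mice went from 4 to 2, Dgat2 and Pcx, and the genes called higher from 442 to 171.

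**Figure D4:**
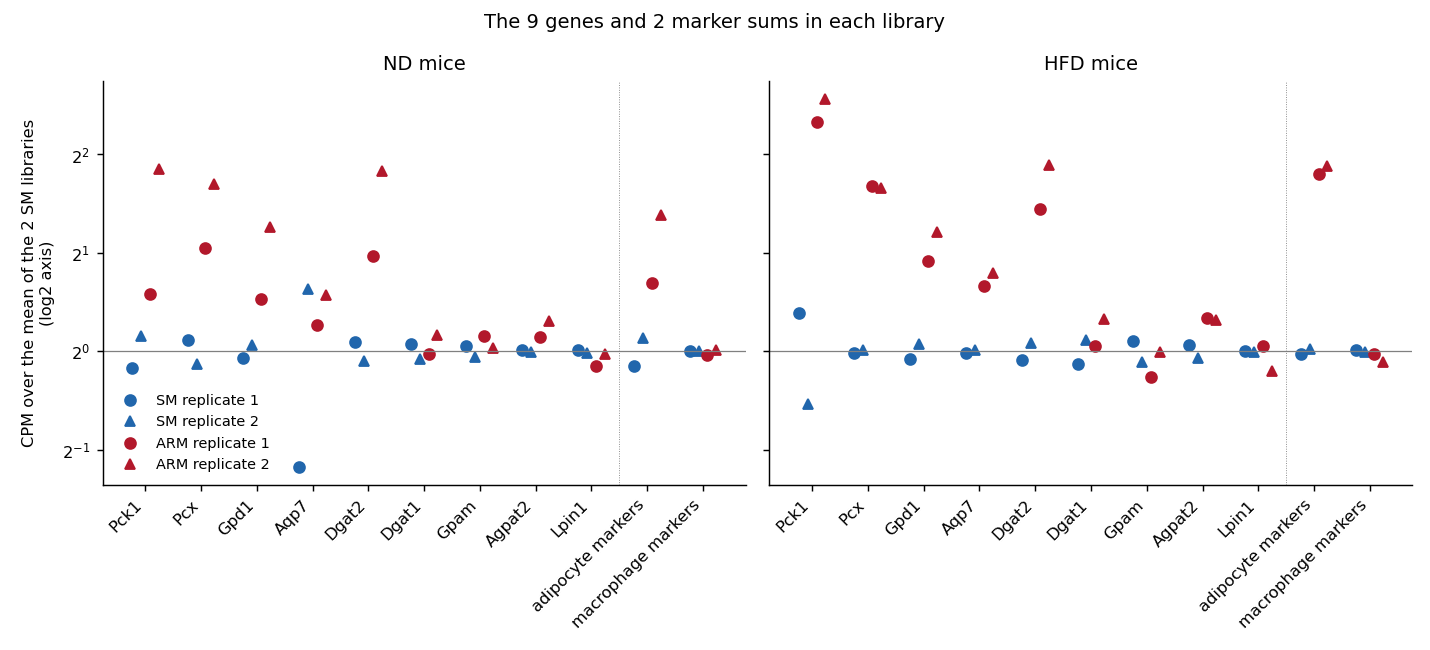
CPM of the 9 genes and of the summed adipocyte and macrophage markers in each library, divided by the mean of the 2 SM libraries of the diet (log2 axis), for ND mice (left) and HFD mice (right). Circles and triangles are replicates 1 and 2, blue SMs and red ARMs. In ND mice the triangle of ARM replicate 2 lies above the circle for Pck1, Pcx, Gpd1, Dgat2 and the adipocyte sum, and the macrophage sum is near 1 throughout.

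Endothelial markers were called higher in HFD ARMs for 6 of 6 genes and in ND ARMs for 0 of 6 (edgeR, with 4 of 6 at an unadjusted p under 0.05 in ND mice), and their sum was 123 to 132 CPM in HFD ARMs, 41.5 to 57.4 CPM in HFD SMs, 33.2 to 64.7 CPM in ND ARMs and 28.4 to 33.2 CPM in ND SMs. Fibroblast and progenitor markers were called for 4 of 6 genes in HFD mice (444 to 559 CPM in ARMs, 302 to 333 CPM in SMs) and for 5 of 6 in ND mice (531 to 758 CPM in ARMs, 188 to 241 CPM in SMs). Pi16 of that list went the other way in HFD mice, at 5.64 and 5.22 CPM in ARMs against 6.36 and 8.41 CPM in SMs. Its HFD log2 fold change was -0.44 (edgeR adjusted p 0.157), and in ND mice all 6 were above 0. Pericyte and smooth muscle markers were called for 3 of 5 genes in HFD mice (Rgs5, Pdgfrb and Notch3) and 2 of 5 in ND mice (Rgs5 and Pdgfrb). Mesothelial markers were called for 0 of 5 and for 4 of 5, namely Msln, Upk3b, Lrrn4 and Wt1 (edgeR, 1 of 5 at an unadjusted p under 0.05 in HFD mice). No lymphocyte marker was called in either diet (median log2 fold change -0.38 in HFD mice and -0.11 in ND mice). No neutrophil marker was called in HFD mice, while 1 of 4, S100a9, was called lower in ND ARMs. The ND neutrophil median was -1.29, with 4 of 4 at an unadjusted p under 0.05 by edgeR and 1 of them above 0. Among all genes tested, 3089 of 13337 in HFD mice and 1858 of 12441 in ND mice had an unadjusted p under 0.05 by edgeR. The part of these other cell types in the differences was not tested.

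Other genes of the pathway were read from lists named by step. None of the 8 other acyltransferases tested was called in either diet (1 at an unadjusted p under 0.05 in HFD mice and 0 in ND mice by edgeR). Among all genes tested, 3089 of 13337 in HFD mice and 1858 of 12441 in ND mice had such a p. The median of the 8 acyltransferases was 0.03 (HFD) and 0.05 (ND) on the log2 scale. The most abundant of these were Agpat3, at 28.80 to 30.50 FPKM in the HFD libraries, and Agpat1, at 27.30 to 31.95 FPKM. Among the phosphatidate phosphatases, Plpp3, which acts on lipid phosphates at the cell surface, was called higher in both diets. It was at 6.64 and 6.79 FPKM in HFD ARMs against 4.58 and 3.89 FPKM in HFD SMs, and at 9.84 and 16.30 FPKM in ND ARMs against 3.66 and 5.55 FPKM in ND SMs. Its log2 fold change was 0.64 ± 0.10 (SE) in HFD mice and 1.5 ± 0.22 in ND mice (edgeR adjusted p 0.00351 and 0.000710). Lpin3 was called in HFD mice by edgeR and did not pass the count filter in ND mice (HFD log2 fold change 1.53 ± 0.40, adjusted p 0.0381, and 0.370 under DESeq2), at 0.40 and 0.36 FPKM in ARMs against 0.12 FPKM in both SM libraries. Lpin2 reached an adjusted p of 0.00792 by edgeR in HFD mice with a log2 fold change of 0.39 ± 0.07, under the fold asked of a call.

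Of the 10 other genes for glycerol 3-phosphate supply tested, among them Gk, Gpd2, Pck2, Aqp9 and the malate and aspartate shuttle enzymes, none was called in either diet, and by edgeR 0 had an unadjusted p under 0.05 in either. Their median log2 fold change was 0.04 in HFD mice and -0.01 in ND mice. Mdh2 and Tpi1 had the highest levels of that list, 57.52 to 66.19 FPKM and 49.24 to 54.20 FPKM in the HFD libraries. Gk, glycerol kinase, had the largest log2 fold change of the list in both diets, 0.52 ± 0.24 (SE) and 0.36 ± 0.23 (edgeR adjusted p 0.224 and 0.548). For the steps of gluconeogenesis beyond the triose phosphates, 2 genes were tested and neither was called (edgeR, unadjusted p under 0.05 for 0 in HFD mice and for 1 in ND mice). G6pc3 was at 13.88 to 16.62 FPKM in the HFD libraries, whereas Fbp1 was at 0.25 to 0.52 FPKM and the liver enzyme G6pc had 0 to 3 reads per library in both diets.

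Among 10 regulators of these genes tested, Pparg, the nuclear receptor that drives adipocyte lipid storage, was called higher in HFD ARMs. It was at 13.38 and 15.57 FPKM in HFD ARMs and 9.10 and 8.75 FPKM in HFD SMs, and at 9.26 and 11.80 FPKM in ND ARMs and 8.67 and 8.66 FPKM in ND SMs. The libraries did not overlap in either diet, and the log2 fold change was 0.67 ± 0.09 (SE) in HFD mice and 0.27 ± 0.15 in ND mice (edgeR adjusted p 0.00134 and 0.463). Whether these differ was tested, and the difference of 0.38 was not called (edgeR adjusted p 0.675). By edgeR 5 of the 10 regulators had an unadjusted p under 0.05 in HFD mice, in both directions, against 3089 of all 13337 genes tested. Besides Pparg, Nr1h3 was higher in HFD ARMs (log2 fold change 0.54, edgeR adjusted p 0.0232). Cebpb (-0.23), Rxra (-0.18) and Cebpa (-0.15) were lower (edgeR adjusted p 0.0340, 0.116 and 0.197). These 4 changes were under the fold asked of a call. No regulator was called in ND mice (edgeR, 2 of 10 at an unadjusted p under 0.05, against 1858 of all 12441 genes tested). Cebpb and Cebpa were the most abundant regulators, at 272 to 319 FPKM and 87.27 to 100.38 FPKM in the HFD libraries.

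**Figure D5:**
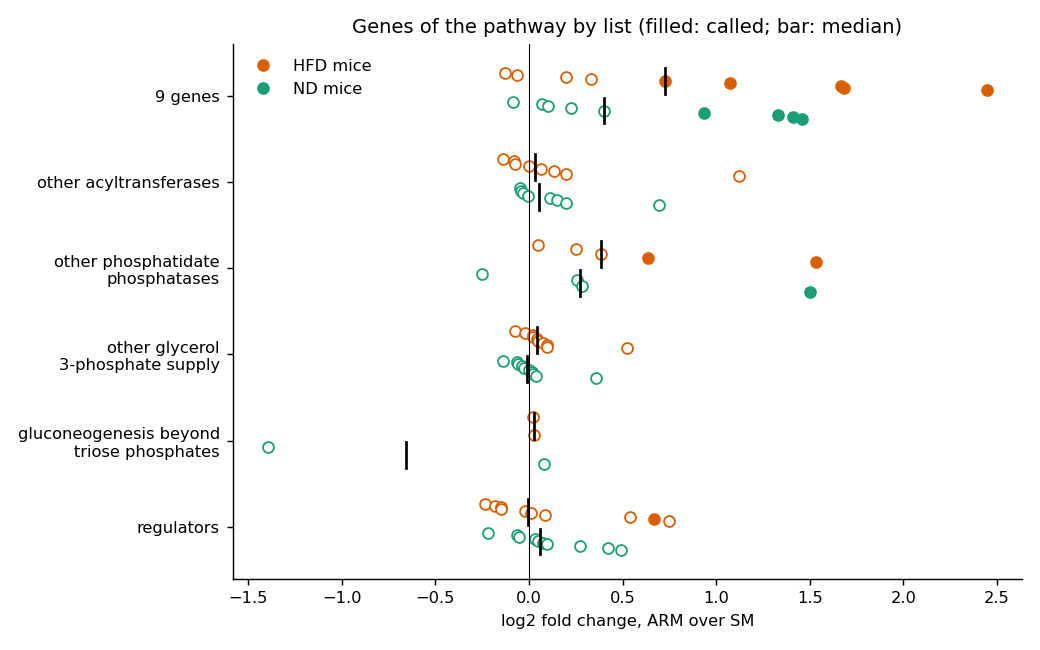
Log2 fold change of ARMs over SMs (horizontal axis) for the tested genes of each list (rows) in HFD (orange) and ND mice (green). Filled points were called and black bars are list medians, which were 0.73 and 0.40 for the 9 genes and between -0.66 and 0.39 for the other lists.

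Whether the difference between ARMs and SMs itself differed by diet was tested in a single fit of all 8 libraries, in which 0.165% of 13358 genes were called. By edgeR 1017 of the 13358 had an unadjusted p under 0.05. None of the 9 genes was called (edgeR, 0 of 9 at an unadjusted p under 0.05, and none under DESeq2, which gave an adjusted p for Lpin1 alone). The largest difference among the 9 was that of Pck1, 1.10 on the log2 scale higher in HFD mice, with a 95% confidence interval from -0.03 to 2.23 and an edgeR adjusted p of 0.675. For the other 8 genes the difference ran from -0.24 (Gpam) to 0.32 (Aqp7). The intervals were wide for Aqp7 (-0.90 to 1.53) and narrow for Lpin1 (-0.27 to 0.28).

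Levels in HFD and ND mice are set side by side as values, since diet and table cannot be told apart. Gpam was lower in HFD mice, 0.450-fold of ND in ARMs and 0.490-fold in SMs, and Lpin1 was higher, 1.56-fold in ARMs and 1.55-fold in SMs, in FPKM. In both genes the HFD and ND libraries did not overlap in either cell type. Aqp7 was 6.56-fold higher in HFD ARMs and 3.6-fold higher in HFD SMs. The gene length implied by count and FPKM, as a mean over the libraries of a diet, was 1.26 times as long in HFD mice for Aqp7. For the other 8 genes it was 1.04 to 1.08 times as long. The ND value for Aqp7 differed among libraries of few reads. In ND ARMs 11.79 and 13 reads gave 0.30 and 0.38 FPKM, whereas in ND SMs 4 and 15 reads gave 0.23 and 0.57 FPKM. In CPM, which uses no length, Aqp7 was 6.73-fold higher in HFD ARMs and 5.47-fold higher in HFD SMs. Pcx was lower in HFD mice in both cell types without overlap, 0.716-fold of ND in ARMs and 0.589-fold in SMs. Gpd1 was 0.709-fold in ARMs, where the libraries overlapped, and 0.633-fold in SMs, where they did not. The ratios of Dgat1, Dgat2, Agpat2 and Pck1 lay between 0.623-fold and 1.38-fold in either cell type. The lowest was that of Pck1 in SMs, where the HFD libraries lay below the ND libraries without overlap. In ARMs the Pck1 libraries overlapped between the diets. In FPKM the diets also stood apart for Dgat1 in ARMs and Dgat2 in SMs, both higher in HFD mice, and for Agpat2 in SMs, lower in HFD mice. In CPM the Agpat2 libraries of SMs overlapped between the diets, and those of Dgat1 in SMs stood apart. How many of all genes stood apart between the diets was not counted, so these separations cannot be set against a background.

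For each called gene, the genes outside the pathway with the most similar profile were found as those with the lowest root mean square difference of log2(CPM + 1), centred within each diet, over the 8 libraries among 12343 genes. For Dgat2 they were Cyp2e1 (0.157), Prelp (0.173) and Sncg (0.182). For Pck1 they were Mgll (0.0777), Thrsp (0.116) and Aoc3 (0.132). Gpd1 was followed by Ndrg2 (0.0551), Slc36a2 (0.0609) and Igf2r (0.0684), and Pcx by Pdgfrb (0.123), Sparc (0.144) and Col4a2 (0.150). Pdgfrb is one of the pericyte markers listed here. For Aqp7, Npas4 (0.0858), Ptchd1 (0.0879) and Grk3 (0.0880) were nearest, at a low level where adding 1 CPM flattens differences between genes. A small distance did not always go with a similar fold change for the other called genes either. On the log2 scale Slc36a2 was higher in ARMs by 2.53 (HFD) and 1.92 (ND), whereas Gpd1 was higher by 1.07 and 0.94. Ndrg2 and Igf2r were closer to Gpd1 on that scale.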

How the data were processed

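RNA-seq of ARMs and SMs sorted from eWAT was examined. For each diet the authors deposited 1 table of estimated counts, FPKM and TPM values for every library, made on mm10 per the submitters' processing notes. The aligner, counting program, strand setting and annotation were not given in the sources used here. Columns of group averages were not used. Deposited counts were not whole for 32.3% to 32.9% of genes in HFD libraries and 8.55% to 9.36% in ND libraries, so the tables were made differently and each diet was fitted alone. The deposited FPKM and TPM values were used for levels.

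Counts were rounded and fitted with edgeR 4.0.16 in R 4.3.3 (TMM normalization, filterByExpr, quasi-likelihood test, Benjamini-Hochberg over all genes tested). A call asked for more than 1.5-fold and an adjusted p of less than 0.05. TMM factors were 0.989 to 1.02, and the biological coefficient of variation was 5.55% in HFD and 8.61% in ND mice. The difference between diets was an interaction term over all 8 libraries. The scripts were tested on simulated data. Alternatives were DESeq2 1.42.0, RLE and library-total normalization, other filters, the threshold of the study's methods (log2 fold change beyond 0.6, unadjusted p under 0.05), 1 fit of all libraries, the replicate block, limma 3.58.1 on log2(FPKM + 1) and log2(FPKM + 0.1) with and without a filter (FPKM of 1 in 2 libraries), and leaving out each library.

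The 9 genes, the pathway lists and the markers were chosen with earlier results of these data known. Genes named are the 9, every called gene and the 2 most abundant of each pathway list, the markers, and the 3 nearest profiles of each called member. Other genes of these lists (such as Gk, Lpin2, Pck2, Gpd1l, G6pc, Nr1h3 and Rxra) were named after their values were seen. Positions and start sites are from RefSeq (GRCm38.p6) and exon overlaps from GENCODE. Python 3.11.15 with matplotlib 3.10.9 drew the figures.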

Additional observations from a re-analysis of the deposited data

Results flagged for a closer look

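Cebpb, a transcription factor of adipocyte and macrophage differentiation, lay below the SMs in both HFD ARM libraries and above them in both ND ARM libraries. Its level was 276 and 272 FPKM in HFD ARMs against 319 and 314 FPKM in HFD SMs, and 168 and 217 FPKM in ND ARMs against 158 and 129 FPKM in ND SMs. The difference between diets was -0.67 on the log2 scale (HFD less ND), with an adjusted p of 0.146 by edgeR's quasi-likelihood test and 0.00432 by DESeq2.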

How the results depend on the processing

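Of the genes called higher in HFD ARMs (595), DESeq2 gave 358, no filter on low counts 167, the threshold of the methods section 922, limma 319 on log2(FPKM + 1), 382 on log2(FPKM + 0.1) and 33 without a filter, and leaving out 1 library 198 to 587 (282 without HFD ARM replicate 1 and 198 without replicate 2). Of those called in ND ARMs (442), the same alternatives gave 258 (DESeq2), 587 (no filter on low counts), 794 (threshold), 202, 208 and 0 (limma), and 171 to 617 with 1 library left out (171 without ND ARM replicate 2 and 239 without ND SM replicate 1). The members called in HFD mice (5) were 3 without the count filter, 0 by limma without a filter and 4 with any library left out. In ND mice (4) they were 2 by limma with either pseudocount, 0 by limma without a filter, and 2 to 4 with 1 library left out (2 without ND ARM replicate 2 or ND SM replicate 1). DESeq2, 1 fit of all libraries and limma with either pseudocount each called 4 members in HFD mice, and DESeq2 called 3 in ND mice. No alternative called a member for the difference between diets.

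With the replicate number as a block (replicate block), 5 members were called in HFD mice and 4 in ND mice, and the genes called higher were 626 and 719. The correlation of same-numbered deviations was 0.02 in HFD mice and 0.28 in ND mice over 2 pairs. Whether same-numbered ARM and SM libraries came from the same mice is not given in the sources used here. The main fits did not pair them, and these values do not settle it for ND mice.

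Signs turned for 9 fold changes or differences between diets that had not been called. Aqp7 in ND mice (0.40) was -0.053 by limma without a filter and -0.22 to 1.57 with 1 library left out, Lpin1 in HFD mice -0.20 to 0.059 and Dgat1 in ND mice -0.028 to 0.16. The difference between diets, with 1 library left out, was -0.029 to 0.24 for Dgat1, -0.12 to 0.70 for Dgat2, -0.13 to 0.13 for Lpin1, -0.16 to 0.53 for Gpd1, -0.014 to 0.61 for Pcx and -0.85 to 0.96 for Aqp7. The log2 ratio of HFD to ND in SMs was -1.03 for Gpam in FPKM and -0.88 in CPM, and 0.63 for Lpin1 in FPKM, 0.71 in TPM and 0.70 in CPM. For Agpat2 in ARMs this ratio turned from -0.022 in FPKM to 0.0036 in TPM and 0.030 in CPM. The causes were not tested. With 2 pools per group and 4 to 15 reads per ND library, the interval of the Aqp7 change in ND mice (-0.80 to 1.60) holds changes in either direction.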
